A study of Drosophila melanogaster with 4 samples.

Results

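Rab GTPases are small GTP-binding proteins that direct membrane traffic. Bound to GTP and anchored in a membrane by lipid groups, a Rab recruits the tethers, motors and fusion factors of its own compartment. Exchange factors (GEFs) load it with GTP, GTPase-activating proteins (GAPs) switch it off, and GDI keeps the inactive form soluble. In phagocytic cells such as fly blood cells, Rabs of the endosomal route carry engulfed particles to the lysosome.

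The Rab genes were taken from the authors' GRO-seq table as every gene whose symbol starts with Rab and a digit, or with RabX. This gave 34 of 16612 genes, all protein-coding. Of these, 32 are Rab GTPases, and the other members, Rab3-GAP and Rab3-GEF, are regulators named after Rab3. The Rab GTPase ltd, called Rab32 in a later RefSeq table and needed for pigment granules of the fly eye, does not carry a Rab symbol in the authors' table and was not a member. It had 8.85 FPKM in Sample3 and 8.01 FPKM in Sample4.

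The study profiled nascent RNA in untreated Drosophila S2 cells, a line from late embryos with a macrophage-like character, in 4 libraries and with no contrast of treatment or genotype. In a nuclear run-on, polymerases already at work in isolated nuclei add labelled nucleotides to their RNA, which is then captured. GRO-seq (2 libraries, Sample3 and Sample4) gave the level over each gene in FPKM, reads per length of gene span, scaled by the total reads of the library. 5'GRO-seq (2 libraries, replicates 1 and 2) selected capped 5' ends, from which the authors called start sites.

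The totals behind the FPKM values were 6572513 reads in Sample3 and 2474822 in Sample4, and the 5'GRO-seq libraries held 13979543 and 6710787 reads. The labels do not say whether libraries came from separate cultures, so the spread between them may be technical. Of 16 hemocyte markers, 15 had at least 1 FPKM in both libraries, with summed levels of 1551 and 2534 FPKM. NimC1, a phagocytic receptor of plasmatocytes, was below 1 FPKM. Of 8 muscle markers 1 did, with sums of 4.67 and 2.72 FPKM and up, a troponin T gene, listed at 0. Of 10 neuron markers 4 did, with sums of 112 and 127 FPKM: Syx1A, a syntaxin also used outside neurons (82.3 and 95.9 FPKM), Csp (16.3 and 15.9 FPKM), the neuronal RNA-binding protein gene elav (10.1 and 10.1 FPKM) and brp (1.66 and 3.15 FPKM). Syt1, the synaptic calcium sensor, had 0.019 FPKM in Sample3 and was listed at 0 in Sample4. Of 7 germline markers 5 did, with sums of 49.2 and 41.8 FPKM, of which tud gave 39.1 and 34.97 FPKM, and vas, a germ cell helicase, had 0.102 and 0.154 FPKM.

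Most Rab genes were transcribed in S2 cells, and those at or near 0 were Rab3, Rab3-GEF, RabX2, RabX5 and the Rab9-named genes of the X chromosome. Of the 34 genes, 24 had at least 1 FPKM in both libraries (70.6%), against 55.0% of all protein-coding genes of the table. All 8 GTPases of the endoplasmic reticulum, Golgi and exocytic route, all 6 of early and recycling endosomes and all 3 of late endosomes and lysosomes were among them. Of the 3 linked to regulated secretion only Rab27 was, and of the 11 RabX, Rab40 and X-linked Rab9-named genes 4 were. The median over the 34 genes was 10.3 FPKM in Sample3 and 9.69 FPKM in Sample4, against 3.69 and 2.63 FPKM over protein-coding genes. No test was made of this difference, since members of a list are not replicates.

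**Figure D1:**
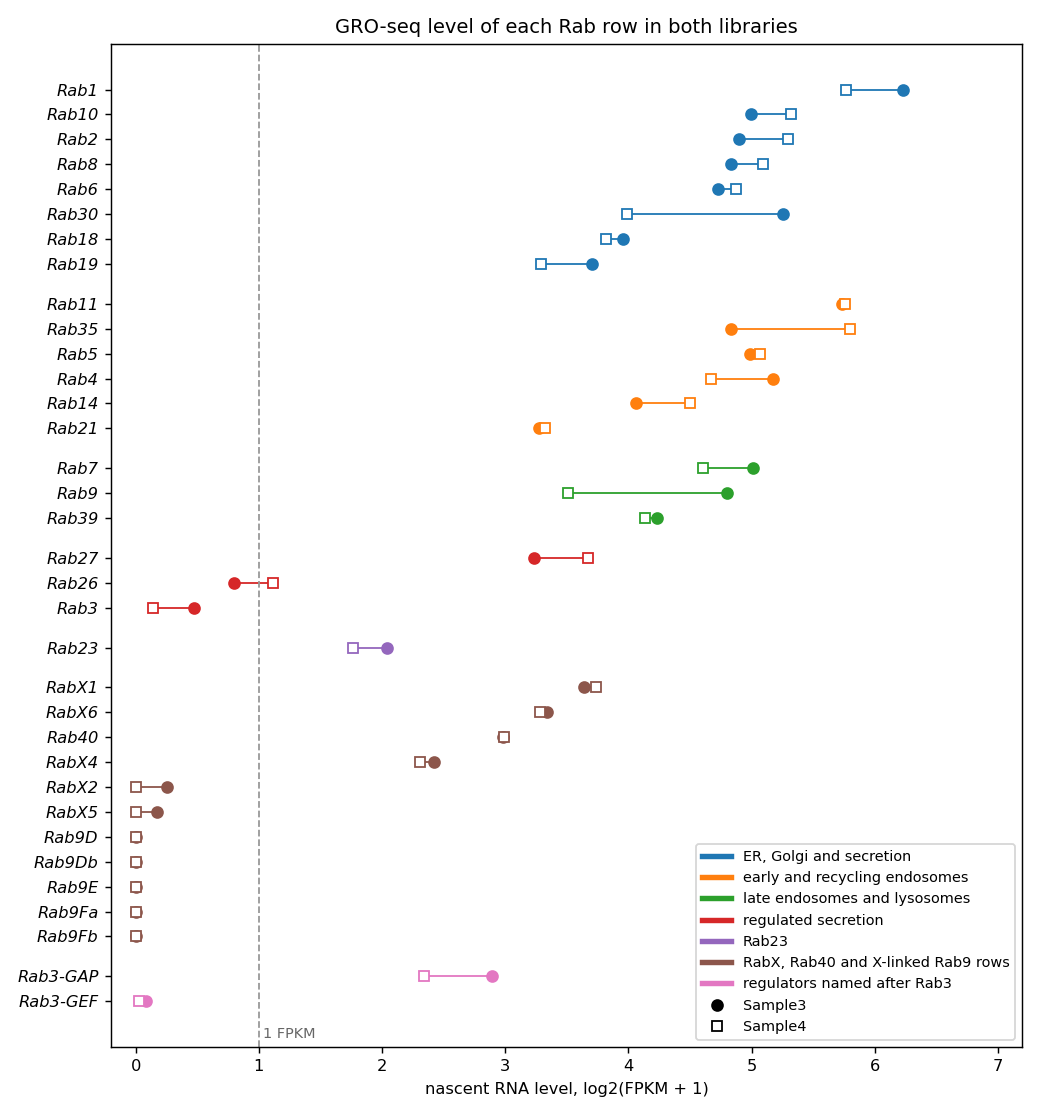
Level of each of the 34 Rab genes on the log2(FPKM + 1) scale, with filled circles for Sample3, open squares for Sample4 and colours for the roles of the products. The dashed line marks 1 FPKM. Rab1 in Sample3 lies furthest to the right, and 5 Rab9-named genes lie at 0 in both libraries.

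Among Rabs of the secretory route, Rab1, which acts in transport from the endoplasmic reticulum to the Golgi, had the highest mean of all members. Rab1 (dm3 3R, 17091751 to 17094782, minus strand) had 74.1 FPKM in Sample3 and 53.5 FPKM in Sample4, from 1477 and 401 reads (mean 63.8 ± 14.6, SD, n = 2). Its mean exceeded that of 95.8% of all genes in the table. In Sample4 alone Rab35, with 54.8 FPKM, was higher.

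Rab10 and Rab8, which act in exocytosis and in flies in the secretion of basement membrane, had similar levels. Rab10 had 30.9 FPKM in Sample3 and 39.0 FPKM in Sample4 (mean 34.9 ± 5.74, SD, n = 2). Rab8 had 27.5 and 33.2 FPKM (mean 30.3 ± 4.08, SD, n = 2). Their ranges over the libraries overlapped.

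Of the Golgi Rabs, Rab2 had 28.8 FPKM in Sample3 and 38.2 FPKM in Sample4. Rab6, which acts in retrograde transport at the Golgi, had 25.5 and 28.3 FPKM (mean 26.9 ± 2.00, SD, n = 2). Rab30 was less even, with 37.3 FPKM in Sample3 and 14.9 FPKM in Sample4. Rab18, found on lipid droplets and the endoplasmic reticulum, had 14.5 and 13.1 FPKM, and Rab19 was the lowest of this route with 12.1 and 8.76 FPKM.

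Early and recycling endosomes were served by genes of nearly the same range. Rab11 (dm3 3R, 16937130 to 16941868, plus strand), the Rab of recycling endosomes, had 52.2 FPKM in Sample3 and 53.1 FPKM in Sample4, from 1625 and 623 reads. Its libraries differed by less than those of Rab1. The lower value of Rab1 lay above both of Rab11's, by less than the counting error of its 401 reads in Sample4 (95% interval 363 to 442). Rab5, needed for fusion of early endosomes, had 30.7 and 32.5 FPKM (mean 31.6 ± 1.25, SD, n = 2).

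Rab35, which acts in recycling to the plasma membrane and in phagocytosis, had 27.5 FPKM in Sample3 and 54.8 FPKM in Sample4. Rab4, of the fast recycling route, went the other way with 35.1 and 24.4 FPKM. Rab14, which acts in phagosome maturation in fly blood cells, had 15.7 and 21.6 FPKM. Rab21, of early endosomes and integrin traffic, was the lowest of the group with 8.66 FPKM in Sample3 and 8.99 FPKM in Sample4.

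Rab7, the Rab of late endosomes and lysosomes, had 31.3 FPKM in Sample3 and 23.4 FPKM in Sample4 (mean 27.3 ± 5.55, SD, n = 2). Rab9, which acts between late endosomes and the Golgi, had 26.9 and 10.4 FPKM. Rab39 had 17.8 and 16.6 FPKM. In these 3 genes Sample3 was the higher library, at Rab39 by less than counting error (log2 difference -0.09, counting SD 0.21). Of the 7666 protein-coding genes of at least 1 FPKM in both libraries, 3350 were higher in Sample4.

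The Rabs of regulated secretion differed among themselves. Rab3, the synaptic vesicle Rab, had 0.387 FPKM in Sample3 and 0.103 FPKM in Sample4, which rested on 20 and 2 reads. Rab26, known from secretory granules of mammals, had 0.740 and 1.17 FPKM over a span of 16254 bp, from 79 and 47 reads. Rab27, of granule exocytosis in mammals, stood apart from both with 8.42 and 11.8 FPKM. Rab3-GEF, the exchange factor for Rab3, had 0.058 and 0.019 FPKM, whereas Rab3-GAP had 6.42 FPKM in Sample3 and 4.06 FPKM in Sample4. Rab23, which in mice restrains Hedgehog signalling and in flies acts in planar polarity, had 3.11 and 2.40 FPKM.

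Of the remaining GTPases, RabX1 (also listed as Chrw) had 11.5 FPKM in Sample3 and 12.3 FPKM in Sample4, RabX6 had 9.13 and 8.74 FPKM, and Rab40, a Rab with a SOCS box, had 6.88 and 6.95 FPKM. RabX4 had 4.36 and 3.94 FPKM, but its 5' part overlaps the row of CG31357 on the same strand, which had 15.6 and 11.5 FPKM, so that reads there can count for both. RabX2 and RabX5 had 1 read each in Sample3 and were listed at 0 in Sample4.

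A stretch of the X chromosome held the lowest members. RabX2, Rab9D, Rab9Db, Rab9E, Rab9Fa and Rab9Fb lie within 535058 bp (dm3 X, 10311462 to 10846519), with spans of 791 to 897 bp, and the last pair lie 579 bp apart on the minus strand. All but RabX2 were listed at 0 in both libraries, so 5 of 34 members were at 0 (14.7%), against 20.9% of protein-coding genes. At these short spans 3 reads correspond to 0.509 to 0.578 FPKM in Sample3 and 1.35 to 1.53 FPKM in Sample4, which bounds, for counting error only, the level of a gene listed at 0. Rab9Fa and Rab9Fb carry the same older gene number in the table; if the authors dropped reads that fit several copies, near-identical copies would read low, and this was not tested. The other 52 genes within the same stretch were not uniformly low: 32 had at least 1 FPKM in both libraries (61.5%) and 7 were listed at 0.

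The family was often X-linked. Of the 34 genes, 14 lie on the X chromosome (41.2%), 6 of them in this stretch, against 15.5% of protein-coding genes. Of these 14, 7 had at least 1 FPKM in both libraries, against 58.6% of the protein-coding genes of the X. The 7 that did not were the 6 genes of this stretch and Rab3-GEF. Of the 20 autosomal members 17 had at least 1 FPKM in both, against 54.3% of the protein-coding genes of chromosomes 2, 3 and 4.

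In the order of mean levels most neighbours could not be separated. Among the 24 transcribed members, 17 of the 23 neighbouring pairs had overlapping values, and 6 pairs did not. How often neighbours among all genes overlap was not computed, so these counts are no result about the Rab genes. One of the 6 pairs was Rab1 above Rab11, by 53.5 against 53.1 FPKM, a gap smaller than counting error. Below Rab1 and Rab11, the stretch from Rab35 to Rab39 held no neighbouring pair that was separated. Genes further apart in this stretch could be: Rab5 (30.7 and 32.5 FPKM) lay above Rab39 (17.8 and 16.6 FPKM) in both libraries. Rab39 lay above Rab18, Rab18 above RabX1, Rab21 above Rab40, Rab40 above Rab3-GAP and RabX4 above Rab23 in both libraries.

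At some members the libraries differed by more than counting error. The log2((FPKM + 1) in Sample4 over Sample3) had an SD of 0.51 over the 24 transcribed members, against 0.60 over 7666 protein-coding genes filtered in the same way. Its median was -0.02 over the members, of which 12 were higher in Sample4. Over the 7666 protein-coding genes the median was -0.09, and 3350 were higher in Sample4. The difference was -1.29 for Rab9 and -1.27 for Rab30, with counting SDs of 0.17 and 0.18, and 0.97 for Rab35, with a counting SD of 0.10. Among protein-coding genes with a read number within 2-fold of theirs in Sample3, 3.07%, 3.24% and 8.55% differed by as much or more. The other 21 transcribed members lay within 1 SD of the differences of genes of like read number. The share of all genes within 1 SD was not computed, so this count does not set the Rab genes apart. Some of the 21 differed by more than counting error, such as Rab1 (-0.46, counting SD 0.08). Others did not, such as Rab11 (0.03, counting SD 0.07). Counting SDs were taken from reads without the added 1 FPKM, so they are too wide for low genes. Both libraries are of the same cells, so these differences are spread between libraries and no response.

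**Figure D2:**
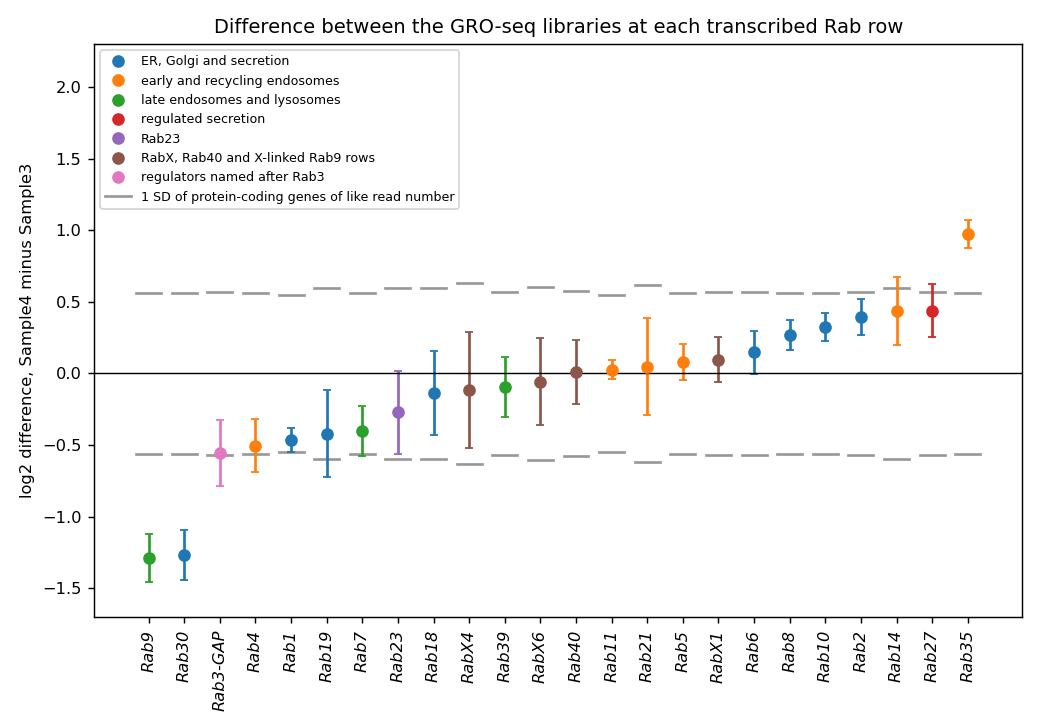
Difference between the GRO-seq libraries (log2, Sample4 minus Sample3) for the 24 Rab genes of at least 1 FPKM in both, ordered by size. Bars give 1 SD of counting error, taken from reads without the added 1 FPKM, so they are too wide for low genes. Grey marks give 1 SD of protein-coding genes of like read number, and Rab9, Rab30 and Rab35 lie outside the grey marks.

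Called start sites lay at the annotated 5' ends of 15 Rab genes in replicate 1 and of 4 in replicate 2. A site counted when its centre lay within 100 bp on the same strand. The 15 of 34 genes in replicate 1 (44.1%) compare with 24.5% of all genes, and the 4 in replicate 2 (11.8%) with 14.8%. All 15 and all 4 were among the 24 transcribed members, which gives 62.5% and 16.7%, against 47.7% and 28.9% of protein-coding genes of at least 1 FPKM in both libraries. A site in both lists was present at 3 members (8.82%), against 10.6% of all genes, and 12.5% of the transcribed members compare with 21.5% of such protein-coding genes. A site had to exceed a GRO-seq control library 4-fold to be called, so genes without a call may still start there.

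Among the most highly transcribed Rab genes, sites within 100 bp of the 5' end were called in replicate 1 alone. Of the 7 members with a mean of 30 to 100 FPKM, 6 had a site in replicate 1 and 0 in replicate 2, whereas 48.3% and 30.9% of 1125 other protein-coding genes of that level did. The 6 were Rab1, Rab11, Rab35, Rab10, Rab2 and Rab8. From 10 to 30 FPKM, 5 of 11 members had a site in replicate 1 and 3 in replicate 2, and the shares of other genes were 52.6% and 34.2%. From 1 to 10 FPKM the counts were 4 and 1 of 6, with shares of 38.7% and 20.7% of other genes. None of the 10 members below 1 FPKM had a site within 100 bp in either list.

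**Figure D3:**
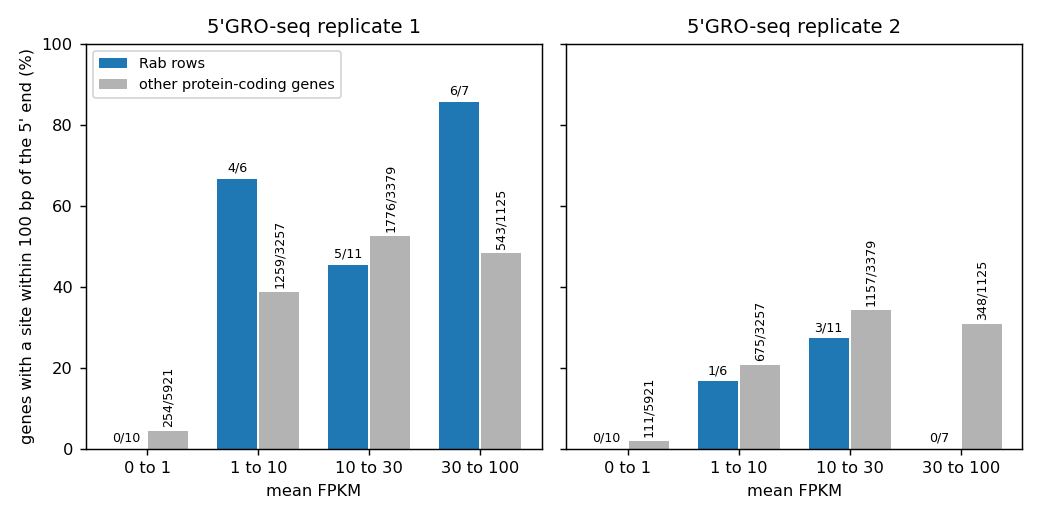
Share of genes with a called same-strand site within 100 bp of the annotated 5' end (%), by mean FPKM, for Rab genes (blue) and other protein-coding genes (grey), with the numbers of genes above the bars. Among the 7 Rab genes of 30 to 100 FPKM, 6 had a site in replicate 1 and 0 in replicate 2.

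All called sites within 100 bp of a Rab gene's annotated 5' end, on its strand, lay downstream of it. In replicate 1 the 15 distances ranged from 3 to 35 bp downstream, with a median of 8 bp and 10 within 10 bp. Over all genes with a site in replicate 1, 81.8% lay downstream and 50.9% within 10 bp, with a median of 6 bp. Rab4, Rab9, Rab18 and Rab3-GAP started at 3 bp, Rab1 and Rab40 at 4 bp, Rab35 at 7 bp, Rab23 at 8 bp, Rab10 at 9 bp, Rab11 at 14 bp, Rab2 at 30 bp and Rab8 at 35 bp.

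The lists shared a base at Rab6 and Rab21. Rab6 (dm3 2L, 12107287 to 12109116, minus strand) had its site at 12109106 in either list, 10 bp downstream of the 5' end. Rab21 (dm3 X, 22413976 to 22415100, minus strand) had its site at 22415080, 20 bp downstream. Rab39 also had a site in each list, at 21 bp in replicate 1 and at 5 bp in replicate 2. RabX1 had sites at 142 bp in replicate 1 and at 65 bp in replicate 2, of which only the latter is within 100 bp.

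Among transcribed members without a site at the end, Rab5, Rab7, Rab30, Rab14, Rab19, Rab27, RabX6 and RabX4 had none within 100 bp in either list. At Rab5, replicate 2 held a same-strand site 407 bp upstream of the annotated end. The table lists 1 transcript per gene, 2290 bp long for Rab5, whereas a later RefSeq table gives the gene 9 transcripts and 6132 bp. For Rab14 these lengths were 1065 and 3620 bp, and for Rab7 they were 1520 and 2445 bp. In all, 13 of the 34 members were longer in the later table than the transcript used here, and 21 had the same length. Over all genes, 11513 of the 16336 that matched had the same length. Starts of other transcripts of the longer genes could lie outside the windows, which was not tested.

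**Figure D4:**
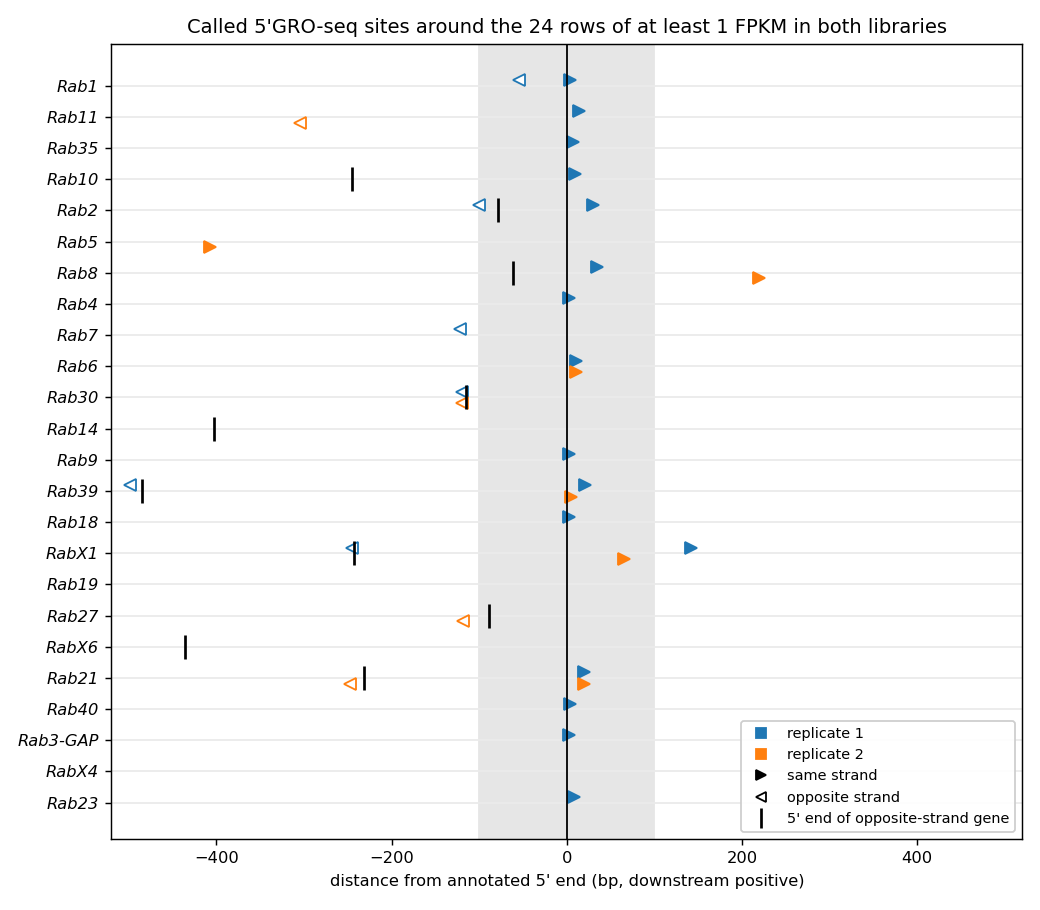
Called 5'GRO-seq sites within 500 bp of the annotated 5' end of the 24 transcribed Rab genes, in bp with downstream positive, for replicate 1 (blue) and replicate 2 (orange). Filled arrows are on the gene's strand, open arrows on the opposite strand, black ticks mark the 5' end of an opposite-strand gene and the grey band spans 100 bp on each side. Sites on the gene's strand within the band all lie to the right of 0, and in both lists at Rab6, Rab21 and Rab39.

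Some Rab genes shared an upstream region with a gene on the opposite strand, at a share near that of other transcribed protein-coding genes. Of the 24 transcribed members, 10 had such a 5' end within 500 bp upstream (41.7%), against 33.7% of protein-coding genes of at least 1 FPKM in both. The closest pair was Rab8 with CG8334 at 61 bp. Next came Rab2 with Mob4 (a member of the striatin complex) at 78 bp and Rab27 with mei-38 (a spindle protein) at 89 bp. At Rab2 and Mob4 both genes had a site in replicate 1, 30 bp and 22 bp downstream of their ends, and similar levels: Mob4 had 22.0 FPKM in Sample3 and 32.4 FPKM in Sample4. At Rab30 and CG11266, both lists held the same site for CG11266, 5 bp downstream of its end and 120 bp upstream of that of Rab30, and none for Rab30, although Rab30 was the higher of the pair in Sample3. CG11266 had 21.5 FPKM in Sample3 and 24.2 FPKM in Sample4. At Rab27, replicate 2 placed a site 29 bp inside mei-38 and none at Rab27, and mei-38 had 14.3 and 22.8 FPKM.

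Opposite-strand sites within 500 bp of the 5' end were present at 6 members in replicate 1 (17.6%) and at 4 in replicate 2 (11.8%), against 13.8% and 8.34% of all genes. Of these, 4 and 3 lay at the annotated end of another gene. The others had no gene annotated within 100 bp on that strand: 55 bp upstream of Rab1 and 122 bp upstream of Rab7 in replicate 1, and 305 bp upstream of Rab11 in replicate 2.

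Same-strand sites inside Rab genes, more than 500 bp from the 5' end, came mainly from replicate 2, as they did over all genes. Its list was also the longer, with 9387 sites against 6782. Replicate 2 held 6 such sites in 4 genes, at 1071 and 2166 bp in Rab1, 1565 bp in Rab30, 2057 bp in Rab23 and 4114 and 4768 bp in Rab3-GAP. Replicate 1 held 1, at 1743 bp in Rab3-GEF. Genes with such a site make up 11.8% of the 34 members in replicate 2 and 2.94% in replicate 1, against 12.0% and 2.44% of all genes. Among the 24 transcribed members the counts were 4 and 0, against 24.3% and 3.93% of protein-coding genes of at least 1 FPKM in both. None of these positions appeared in both lists. At Rab8, whose replicate 1 site lay at 35 bp, replicate 2 placed its site at 219 bp. On the opposite strand, replicate 1 held sites inside Rab1 at 557 bp, Rab10 at 776 bp and Rab11 at 3940 bp. Replicate 2 held no opposite-strand site inside a Rab gene. The share of all genes with such a site was not computed, so this contrast is no result about the Rab genes. Sites beyond the 3' ends of Rab26 and RabX5 belonged to the next genes downstream, CG7338 and the ribosomal protein gene RpL23A. Others within 500 bp beyond a 3' end, all in replicate 2, had no annotated 5' end within 100 bp on their strand: a same-strand site 1533 bp from the 5' end of Rab19 and opposite-strand sites 2549, 1742 and 2302 bp from those of Rab2, Rab4 and Rab6. RpL23A began 247 bp beyond the end of RabX5 and had 368 FPKM in Sample3 and 2169 FPKM in Sample4, while RabX5 had 1 read in all.

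A few Rab genes followed a transcribed gene on their own strand. Rab1 began 149 bp beyond AP-2sigma (a subunit of the clathrin adaptor AP-2; 14.6 and 9.33 FPKM), Rab9 130 bp beyond CG9987 (19.3 and 22.2 FPKM) and Rab4 132 bp beyond CG42239 (23.7 and 23.4 FPKM). Rab9 itself had 26.9 FPKM in Sample3 and 10.4 FPKM in Sample4. At larger gaps, Rab35 began 483 bp beyond Phf7 (8.13 and 10.0 FPKM) and Rab3 375 bp beyond CG12338 (5.34 and 6.03 FPKM). Rab3-GAP began 339 bp beyond CG14946 (2.29 and 0.621 FPKM), which was below 1 FPKM in Sample4. The share of all genes with such a neighbour was not computed. Whether polymerases running on from these upstream genes added to the Rab values was not tested.

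Nearly all listed genes of the Rab machinery were transcribed. Of all protein-coding genes, 55.0% had at least 1 FPKM in both libraries. The lists here leave out the members Rab3-GEF (below 1 FPKM) and Rab3-GAP, described above, and name the highest and lowest gene by mean. All 4 genes for GDI, the escort protein Rep and the prenyltransferase had at least 1 FPKM in both libraries, from Rep with 12.99 and 5.55 FPKM to Gdi with 25.9 and 26.0 FPKM. So did all 12 other exchange factors, from Ccz1 (part of the Rab7 exchange complex, 7.11 and 5.67 FPKM) to spri (a Rab5 exchange factor, 55.4 and 52.4 FPKM), and 14 of 15 other GAPs. The highest GAP was CG7324 with 37.6 and 37.6 FPKM, and CG32506 was lowest with 0.072 and 0.096 FPKM. All 28 endosomal effectors and tethers passed, led by the Rab11 effector Rip11 with 35.5 and 71.2 FPKM, with Exo70 of the exocyst lowest at 6.75 and 6.37 FPKM. All 21 Golgi tethers and TRAPP subunits passed too, from Bet5 with 5.46 and 2.90 FPKM to Grasp65 with 27.4 and 34.8 FPKM.

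On the log2(FPKM + 1) scale the list medians were 4.20 for GDI, Rep and prenylation, 3.89 for exchange factors and 3.70 for GAPs. They were 3.92 for endosomal effectors and 3.46 for Golgi tethers. The median was 3.59 for the 32 Rab GTPases, 2.07 for protein-coding genes and 1.41 for all genes, noncoding ones included. Other small GTPase families stood at 3.95 (12 Arf, Arl and Sar1 genes, 11 of them of at least 1 FPKM in both) and 3.87 (10 Ras family genes, 8 of them). Arf79F, an Arf of the Golgi, had 252 and 127 FPKM and Arl6 was lowest with 2.25 FPKM in Sample3 and a listed 0 in Sample4. In the Ras family R (Rap1) had 36.7 and 67.6 FPKM and Rgk2 0.259 and 0.172 FPKM. No test was made between these families.

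**Figure D5:**
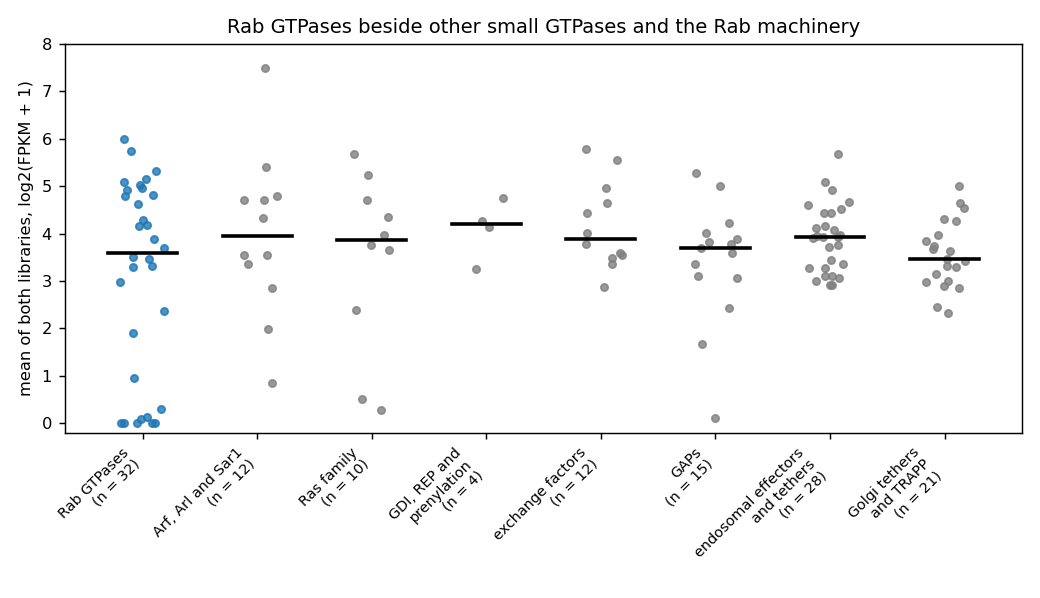
Level of single genes, as the mean of both libraries on the log2(FPKM + 1) scale, for the 32 Rab GTPases (blue), other small GTPase families and genes of the Rab machinery (grey), with black lines at the medians. The Rab GTPases range from 0 for the Rab9-named genes to Rab1 at the top, with a median of 3.59.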

How the data were processed

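Per the file headers, the authors deposited GRO-seq levels in FPKM, with 1 RefSeq transcript for each gene; the build is dm3. The columns carry no replicate number. Multiplied by gene span (introns included), 99.9% of 3691 low values in Sample3 and of 4542 in Sample4 came out as whole reads, within 0.1 read. These recovered reads gave depths and floors of 3 reads; intervals and floors cover counting error only. The authors called sites with HOMER per library against a GRO-seq control, per the file headers; the deposited score column is a constant and was not used. CASAVA 1.8.2, Bowtie2 2.1.0 and HOMER 4.7 stand in the submitters' processing notes; how reads were aligned is not given in the sources used here.

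Sites were taken at their interval centres and matched to annotated 5' ends. Levels were set on log2(FPKM + 1), which understates differences of low genes. With 1 group of 2 libraries per assay, no test was made; read recovery and site matching were tested on simulated data. The members, role lists and tests were chosen with earlier results of these data known. Every member is named; other genes are named as highest or lowest of a list, as neighbours, or as markers. Motif searches planned for promoters need sequence and were not analysed here, and 1 planned gene list is not reported here. All 34 members matched a RefSeq table of release 6, used for names and lengths. Python 3.11.15, numpy 2.4.6, pandas 2.3.3, scipy 1.17.1 and matplotlib 3.10.9 were used.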

Additional observations from a re-analysis of the deposited data

How the results depend on the processing

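The median level of the 34 Rab genes exceeded that of all genes, noncoding ones included, by 2.07 on the log2(FPKM + 1) scale. The medians were 3.48 for the Rab genes, 1.41 for all genes and 2.07 for protein-coding genes. The excess over protein-coding genes was thus smaller. The excess over all genes was 2.63 with a pseudocount of 0.1. It was 0.44 where only genes at or above 1 FPKM in both libraries entered, a filter on the value itself. With either library left out it ranged from 1.92 to 2.17. The number of transcribed members ranged from 21 to 25 over FPKM minimums of 0.5 and 5, and from 24 to 25 with either library left out. The count of sites in replicate 2 was 2 within 10 bp, and that in both lists was 1 within 10 bp and 5 within 500 bp, against 4 and 3 within 100 bp. The median difference between the libraries was -0.02 among members of at least 1 FPKM and 0.15 among the 9 members of at least 100 reads in both, a filter that keeps genes high in the shallower Sample4. No paired analysis was possible because the GRO-seq columns carry no replicate number and no groups were compared. The depth of Sample4 limits the short genes.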
